A study of Rattus norvegicus with 12 samples.

Results

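The genes described here are 9 that serve the neuromuscular junction or report its loss: the acetylcholine receptor subunit genes Chrna1, Chrnb1, Chrnd, Chrne and Chrng, the receptor tyrosine kinase gene Musk, the acetylcholinesterase gene Ache with its collagen tail gene Colq, and the neural cell adhesion molecule gene Ncam1. They were picked by gene symbol from a table of 30206 genes, of which 14599 passed the low-count filter, and all 9 members were found and passed it. The libraries came from the pubocaudalis, a pelvic floor muscle, of 3-month-old female Sprague-Dawley rats. Every rat was late in pregnancy when the vagina was distended with a balloon, the simulated birth injury (SBI), so the injury is shared by all 4 groups. In the groups 1wk SBI and 3wk SBI the pups were taken away after delivery, so the rats did not lactate, and muscle was collected 1 or 3 weeks after the injury. In 1wk SBI + Lac and 3wk SBI + Lac the dams kept their pups and lactated. The RNA of 2 rats was pooled for each library, with 3 pools per group and 12 libraries in all, so n counts pools. The lactation comparisons set dams with pups against dams without, so nursing and the presence of pups cannot be told apart. Libraries of uninjured muscle were not analysed here, so a level cannot be called raised or lowered by the injury.

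The neuromuscular junction is the synapse at which a motor neuron releases acetylcholine onto a muscle fiber. Receptors there are pentamers of alpha subunits with beta, delta and either the fetal gamma subunit (Chrng) or the adult epsilon subunit (Chrne), and the nerve organizes them through agrin, the co-receptor Lrp4 and the kinase MuSK. When a fiber loses its nerve, and also while a new fiber has not yet been innervated, nuclei along its length transcribe receptor subunit genes, Musk and Ncam1 again, driven through E-boxes by myogenic factors such as myogenin, while innervated fibers confine this transcription to the nuclei under the synapse.

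At 1 week the summed counts of a library lay between 41201635 and 51662983 without lactation and between 30862144 and 39844090 with it. At 3 weeks they lay between 10082734 and 75634391 without and between 10704307 and 70187854 with lactation. Levels are given as normalized CPM, counts scaled by the library size and the edgeR normalization factor of each library, and are compared between libraries for 1 gene at a time, never between genes. All 11 genes with a row on a list of mature myofiber markers were above 0 in every library, with a summed level of 84546 to 217138 CPM. In bulk RNA, fewer cells of a type and less RNA per cell cannot be told apart. The values of the 2 time points were counted in different ways: the 1-week columns hold whole counts and the 3-week columns estimated counts with decimals, and 30 genes had 0 counts in every 1-week library but at least 100 over the 3-week libraries, against 0 genes the other way. Every comparison between 3 weeks and 1 week therefore mixes time with counting, and the part of the counting in it was not tested.

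The upstream sequences of 4 subunit genes are shown because log2 CPM of Chrna1 and Chrnd had a Pearson r of 0.98 over the 12 libraries, against 0.90 for Chrna1 with Chrng and 0.48 for Chrna1 with Chrne. Each run is the 250 bases before the RefSeq start of the gene in build GRCr8, read 5′ to 3′ on the strand of the gene. Capitals mark every CANNTG, the E-box bound by myogenic factors, and every CCGGAA on either strand, the N-box bound by ETS factors in synaptic nuclei.
Chrna1 promoter, GRCr8 chr3:78877354-78877603, minus strand: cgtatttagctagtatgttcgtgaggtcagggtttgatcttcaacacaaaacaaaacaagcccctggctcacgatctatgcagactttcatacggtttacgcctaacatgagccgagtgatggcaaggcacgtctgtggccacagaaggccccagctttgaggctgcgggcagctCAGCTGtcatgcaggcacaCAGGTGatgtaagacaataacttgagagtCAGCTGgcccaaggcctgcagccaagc
Chrnd promoter, GRCr8 chr9:95310066-95310315, plus strand: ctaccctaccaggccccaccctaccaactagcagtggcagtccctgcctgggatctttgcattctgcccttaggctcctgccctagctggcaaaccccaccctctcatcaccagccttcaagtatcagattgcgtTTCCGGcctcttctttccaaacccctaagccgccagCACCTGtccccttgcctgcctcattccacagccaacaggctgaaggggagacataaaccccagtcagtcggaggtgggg
Chrng promoter, GRCr8 chr9:95325734-95325983, plus strand: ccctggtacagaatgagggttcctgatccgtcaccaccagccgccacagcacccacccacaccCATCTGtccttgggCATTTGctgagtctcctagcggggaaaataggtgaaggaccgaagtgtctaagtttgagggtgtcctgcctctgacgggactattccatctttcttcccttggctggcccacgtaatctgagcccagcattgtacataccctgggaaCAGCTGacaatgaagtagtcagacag
Chrne promoter, GRCr8 chr10:55834155-55834404, minus strand: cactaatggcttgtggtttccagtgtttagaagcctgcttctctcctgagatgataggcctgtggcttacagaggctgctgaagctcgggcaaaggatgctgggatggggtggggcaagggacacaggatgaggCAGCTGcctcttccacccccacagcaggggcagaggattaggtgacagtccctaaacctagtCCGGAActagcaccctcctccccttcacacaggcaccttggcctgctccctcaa
Of the 9 genes, 7 had a promoter in the RefSeq table, and Colq and Ncam1 did not. In these windows Chrna1, Chrnb1, Chrng and Musk each held 3 CANNTG matches, and Chrnd, Chrne and Ache held 1 each. The form CAGCTG was present in Chrna1, Chrnb1, Chrne, Chrng and Musk. CCGGAA was found in the windows of Chrnd and Chrne alone among the 7, once in each, and overlapped no CANNTG match. Of 33469 RefSeq promoters of the same length, 65.54% held a CANNTG, 11.97% a CAGCTG and 12.6% a CCGGAA, so only the first was common. Whether the windows of the 7 genes held the others more often than promoters in general was not tested. The matches are given as a description of the sequence, not as sites of binding.

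Chrna1 (ENSRNOG00000018286) encodes the alpha subunit, which carries most of the acetylcholine binding site. Its level in the 3 non-lactating pools at 1 week was 181, 209.5 and 43.9 CPM, and in the lactating pools 96.1, 42.9 and 47.0 CPM. At 3 weeks it was 12.4, 13.4 and 15.6 CPM without lactation and 10.8, 10.5 and 11.1 CPM with it. Replicates 1 and 2 of 1wk SBI stood above all other libraries, replicate 3 lay inside the range of the lactating pools, and every 3-week library was below every 1-week library. The Chrna1 log2 fold change from 1 to 3 weeks was -3.37 in non-lactating rats (standard error 0.57, adjusted p = 0.0150, edgeR quasi-likelihood test with Benjamini-Hochberg adjustment), a 10.4-fold fall. In lactating rats the change was -2.52 (standard error 0.56), and its adjusted p of 0.0580 missed the cutoff of 0.05 in the edgeR fit of all 12 libraries. The call was made in edgeR on only the libraries compared (adjusted p = 0.0203), in edgeR on genes with at least 10 counts in every library (adjusted p = 0.0355) and in both DESeq2 fits.

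Chrnd (ENSRNOG00000019527), the gene of the delta subunit, showed a like pattern over the libraries. Its level was 169.9, 145 and 55.6 CPM in 1wk SBI and 90.1, 50.2 and 73.3 CPM in 1wk SBI + Lac. It was 15.2, 13.7 and 17.0 CPM in 3wk SBI and 13.5, 11.3 and 15.9 CPM in 3wk SBI + Lac. Again 2 of the 3 non-lactating pools at 1 week were high and the third was within the lactating range, while the 3-week groups overlapped each other. Chrnd fell from 1 to 3 weeks by 3.00 on the log2 scale without lactation (standard error 0.39, adjusted p = 0.00536, edgeR) and by 2.42 with it (standard error 0.38, adjusted p = 0.0145, edgeR). Across the 12 libraries, log2 CPM of Chrna1 and Chrnd had a Pearson r of 0.98, and of 0.94 after the mean of each time point was subtracted. The libraries share depth and the RNA of their other cells, so these r are descriptions without a test.

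Chrnb1 (ENSRNOG00000014698), the gene of the beta subunit, varied far less than its alpha and delta partners. Its levels ran from 54.4 to 70.2 CPM in 1wk SBI, from 55.8 to 69.8 CPM in 1wk SBI + Lac, from 38.1 to 49.0 CPM in 3wk SBI and from 42.6 to 48.2 CPM in 3wk SBI + Lac. The highest library had 1.84 times the lowest, against 19.9 times for Chrna1 and 15.1 times for Chrnd. The 3-week change was -0.58 without lactation (standard error 0.13, adjusted p = 0.0182, edgeR), past the p cutoff but within the fold cutoff of 1 on the log2 scale, and -0.48 with lactation (standard error 0.13, adjusted p = 0.0607, edgeR). The lactation effect on Chrnb1 was -0.03 at 1 week (95% interval -0.29 to 0.24). Chrnb1 overlaps Zbtb4 in the RefSeq annotation, whose row held 459 to 4321 counts, and whether the 2 genes shared reads was not tested.

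**Figure D1:**
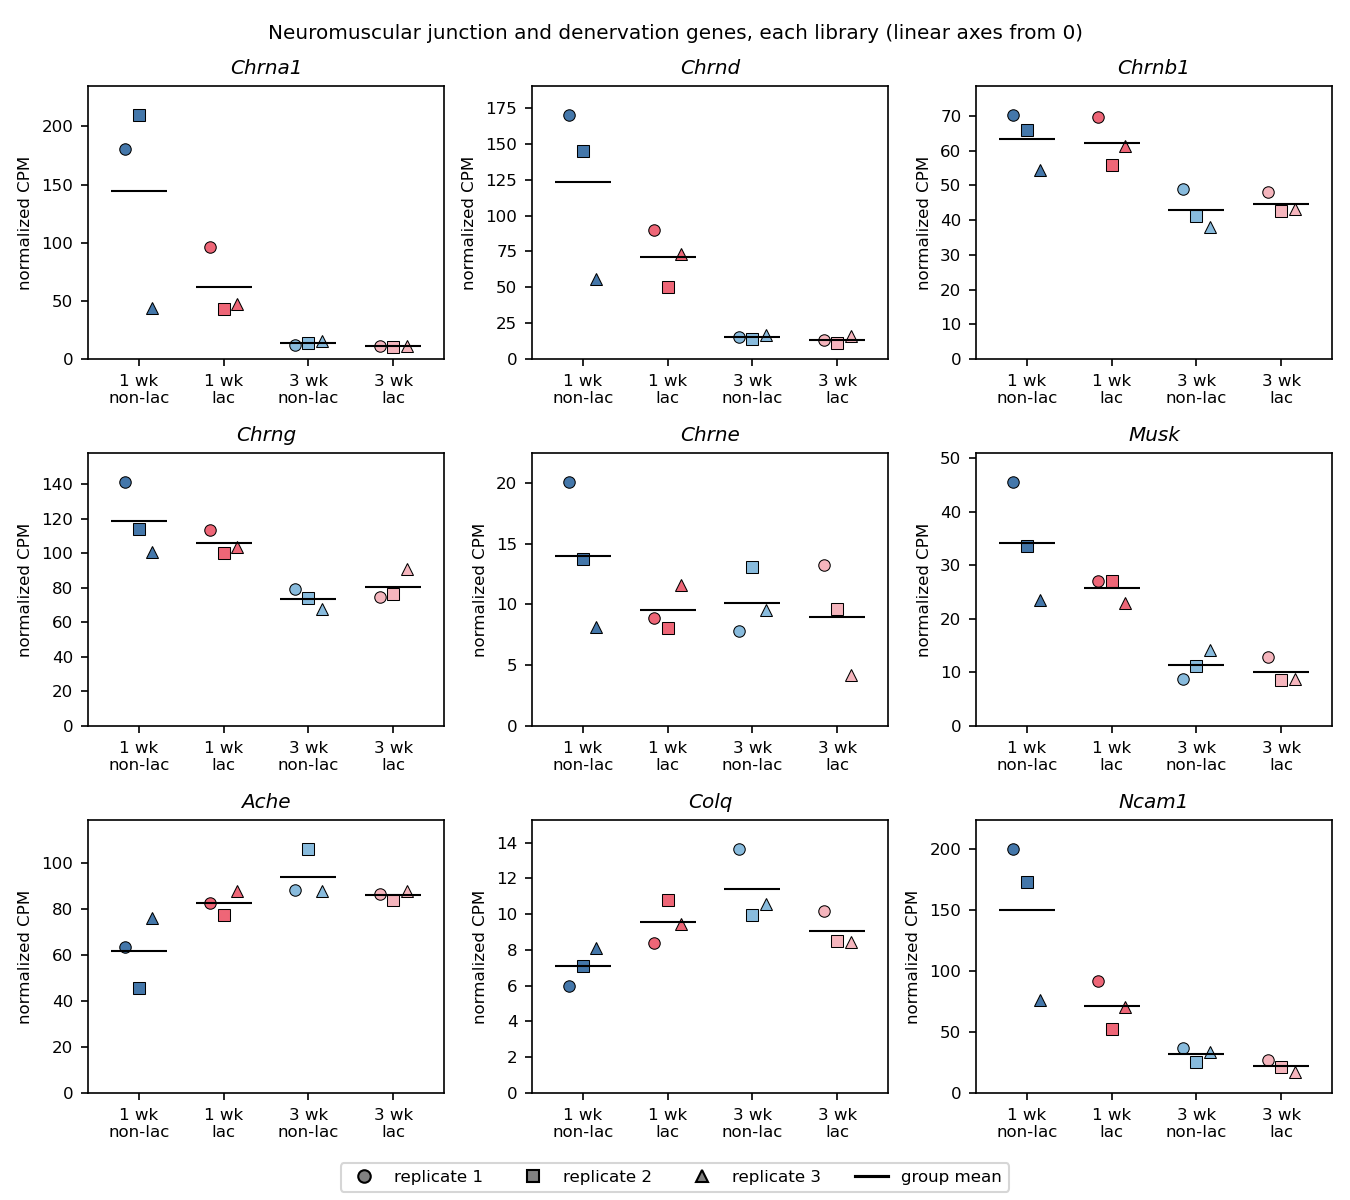
Normalized CPM (vertical axes, linear from 0) of the 9 genes in each of the 12 libraries, by group on the horizontal axes; symbols give the replicate number and the black line the mean of the 3 pools. For Chrna1, Chrnd and Ncam1 the circle and square of 1wk SBI stand high and its triangle lies within or close to the lactating pools; the 3-week libraries of Chrna1 lie between 10.5 and 15.6 CPM.

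Chrng (ENSRNOG00000019634), the gene of the fetal gamma subunit, was 141, 114 and 101 CPM in 1wk SBI and 113, 100.1 and 104 CPM in 1wk SBI + Lac. It was 79.3, 74.4 and 67.6 CPM in 3wk SBI and 74.9, 76.2 and 91.0 CPM in 3wk SBI + Lac. The 2 groups of each time point overlapped, and all 3-week libraries lay below all 1-week libraries. Replicates 1 and 2 of 1wk SBI were above the lactating pools and replicate 3 was within their range. That order was the same as for Chrna1, with smaller distances between the pools. The change over time was -0.69 without lactation (standard error 0.13, adjusted p = 0.00967, edgeR), past the p cutoff and within the fold cutoff, and -0.39 with lactation (standard error 0.13, adjusted p = 0.121, edgeR). In the RefSeq annotation Chrng lies between Chrnd and Eif4e2. Eif4e2 was not analysed here, and whether reads of it were counted under Chrng was not tested, so the level of Chrng is uncertain.

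Chrne (ENSRNOG00000003777), the gene of the adult epsilon subunit, was 20.1, 13.7 and 8.13 CPM in 1wk SBI and 8.92, 8.10 and 11.6 CPM in 1wk SBI + Lac. It was 7.83, 13.1 and 9.54 CPM in 3wk SBI and 13.2, 9.63 and 4.18 CPM in 3wk SBI + Lac. All 4 groups overlapped one another, and no neighbours in the order of group means differed beyond their spread. At 1 week replicates 1 and 2 of 1wk SBI were above the lactating pools and replicate 3 was within their range. Chrne was one of the more thinly counted members, with 38 counts in replicate 3 of 3wk SBI + Lac and 1252 in replicate 1 of 1wk SBI. No comparison passed, with changes over time of -0.46 (95% interval -1.28 to 0.37) without lactation and -0.02 (95% interval -0.85 to 0.81) with it. Changes anywhere within these intervals are compatible with the data. Chrne overlaps the gene Gp1ba in the RefSeq annotation, and the Gp1ba row held at most 2 counts in any library.

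The log2 ratio of Chrng to Chrne counts, with 0.5 added to each count, compares the fetal with the adult subunit inside a library, so that library size cancels out. It does not compare their levels, since transcript length stays in it. Whether reads of Eif4e2 were counted under Chrng was not tested, so the ratio is uncertain as a measure of the fetal subunit. At 1 week the ratio was 2.81, 3.06 and 3.63 in the non-lactating pools and 3.66, 3.62 and 3.16 in the lactating pools. At 3 weeks it was 3.33, 2.51 and 2.82 in the non-lactating pools and 2.50, 2.98 and 4.43 in the lactating pools. The groups overlapped throughout, and the 2 extreme ratios, 2.50 and 4.43, came from the same group. Its mean at 1 week was 3.17 ± 0.42 without and 3.48 ± 0.28 with lactation, and its mean at 3 weeks 2.89 ± 0.42 without and 3.30 ± 1.00 with lactation (SD, 3 pools each). Averaged over the 2 time points the lactating pools were 0.37 higher (exact permutation test within time points, two-sided p = 0.3, adjusted p = 0.758 over 6 comparisons). Averaged over the 2 lactation states the 3-week pools differed by -0.23 (exact permutation test, two-sided p = 0.505, adjusted p = 0.758). The smallest p these 2 tests could give was 0.005. Within 1 time point or 1 lactation state the exact permutation p ran from 0.3 to 0.9, where 3 pools against 3 cannot go below 0.1. Without replicate 3 of 3wk SBI + Lac, the library with 38 Chrne counts, the 3-week lactation difference of the ratio turned from 0.42 to -0.15. Without replicate 1 of 3wk SBI + Lac the change of the ratio over time in lactating rats turned from -0.18 to 0.22.

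**Figure D2:**
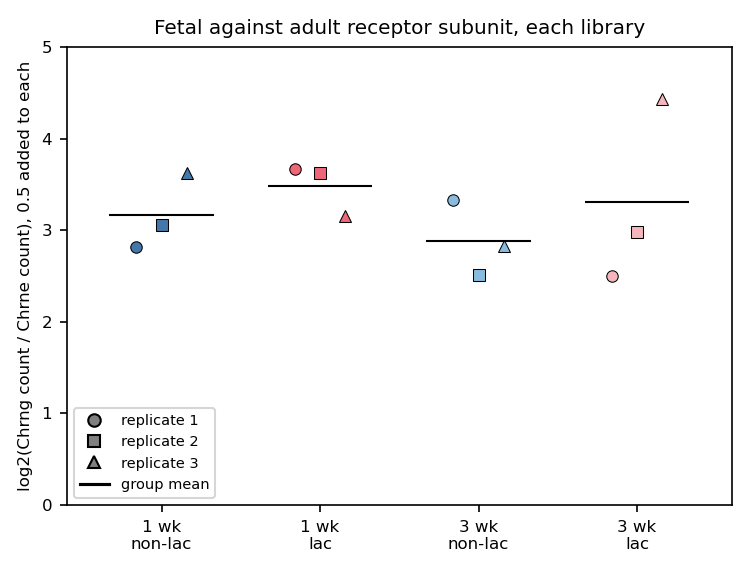
Log2 ratio of Chrng to Chrne counts (vertical axis, 0.5 added to each count) in each library, by group; symbols give the replicate number and lines the mean of 3 pools. The groups overlap, with means from 2.89 to 3.48.

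Musk (ENSRNOG00000033567) encodes the muscle-specific kinase through which agrin clusters the receptors. Its level was 45.5, 33.6 and 23.4 CPM in 1wk SBI and 27.0, 27.1 and 22.9 CPM in 1wk SBI + Lac. It was 8.69, 11.3 and 14.2 CPM in 3wk SBI and 12.9, 8.59 and 8.68 CPM in 3wk SBI + Lac. The first 2 non-lactating pools at 1 week were above the lactating pools, the third was among them, and no 3-week library reached a 1-week library. Genes that overlap Musk and Colq in the annotation were not analysed here. Musk fell over time by 1.54 on the log2 scale without lactation (standard error 0.24, adjusted p = 0.00660, edgeR) and by 1.34 with it (standard error 0.24, adjusted p = 0.0185, edgeR).

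Ache (ENSRNOG00000050841) encodes acetylcholinesterase, which ends transmission by breaking down acetylcholine in the cleft, and is also made by red blood cells. Its level was 63.5, 45.5 and 76.1 CPM in 1wk SBI, below the 82.5, 77.2 and 87.9 CPM of 1wk SBI + Lac. At 3 weeks it was 88.1, 105.9 and 87.6 CPM in 3wk SBI and 86.5, 83.7 and 87.7 CPM in 3wk SBI + Lac. The 1wk SBI pools were thus the 3 lowest of the 12, and the other 3 groups overlapped. The lactation effect on Ache at 1 week was 0.42 (standard error 0.15, adjusted p = 0.144, edgeR), and the change over time in non-lactating rats was 0.61 (standard error 0.15, adjusted p = 0.0304, edgeR), past the p cutoff and within the fold cutoff. The summed level of 7 erythroid genes was also lower in 1wk SBI, 242 to 414 CPM, than in 1wk SBI + Lac, 556 to 780 CPM, with Slc4a1, Ahsp, Epb42 and Klf1 at 0 in at least 1 library, and its part in the Ache values was not tested. At 3 weeks, where values were counted in another way, the erythroid sum was 97.3 to 183 CPM in 3wk SBI and 132 to 242 CPM in 3wk SBI + Lac. The part of the erythroid genes in the 3-week Ache values was not tested either. Ache overlaps Ufsp1 in the RefSeq annotation, and the Ufsp1 row held at most 3 counts in any library.

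Colq (ENSRNOG00000019615) encodes the collagen tail that anchors acetylcholinesterase in the synaptic basal lamina. It was 6.01, 7.12 and 8.13 CPM in 1wk SBI, 8.39, 10.8 and 9.44 CPM in 1wk SBI + Lac, 13.6, 9.97 and 10.6 CPM in 3wk SBI and 10.2, 8.50 and 8.46 CPM in 3wk SBI + Lac. As with Ache, the 1wk SBI pools were the 3 lowest. The lactation effect at 1 week was 0.43 (standard error 0.16, adjusted p = 0.166, edgeR), and the change over time was 0.67 in non-lactating rats (standard error 0.16, adjusted p = 0.0308, edgeR) and -0.07 in lactating rats (adjusted p = 0.857, edgeR). Whether the 2 changes over time differed is the same question as whether the 2 lactation effects differed: the difference was -0.74 for Colq (95% interval -1.24 to -0.25) and -0.55 for Ache (95% interval -0.99 to -0.10), with an adjusted p of 0.999 for both in edgeR.

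Ncam1 (ENSRNOG00000031890), whose protein spreads over the surface of fibers without a nerve and is also carried by satellite cells, young myotubes and non-myelinating Schwann cells, was 200.1, 173 and 76.5 CPM in 1wk SBI. In 1wk SBI + Lac it was 91.7, 52.6 and 70.4 CPM, in 3wk SBI 37.2, 25.7 and 33.3 CPM, and in 3wk SBI + Lac 27.4, 21.4 and 16.9 CPM. Replicates 1 and 2 of 1wk SBI were the highest libraries, replicate 3 fell between the lactating pools, and the 3-week groups overlapped at their edges. Ncam1 fell over time by 2.23 on the log2 scale without lactation (standard error 0.35, adjusted p = 0.00879, edgeR) and by 1.69 with it (standard error 0.35, adjusted p = 0.0400, edgeR).

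The first question of the design is whether lactation goes with another level of these genes at 1 week. None of the 9 genes passed both cutoffs in edgeR, which are 0.05 for the adjusted p and 1 for the size of the log2 fold change, where 0.253% of all genes tested did. At an unadjusted p under 0.05 there were 5 of 9, Chrna1, Chrnd and Ncam1 lower and Ache and Colq higher with lactation, against 18.9% of all genes. DESeq2 on all 12 libraries called 1 of the 9, Ncam1, and 188 of all genes. DESeq2 on only the libraries compared called 0 of the 9 and 332 of all genes. The effects were -1.22 for Chrna1 (95% interval -2.38 to -0.07), -1.07 for Ncam1 (95% interval -1.80 to -0.33) and -0.80 for Chrnd (95% interval -1.57 to -0.02). Their edgeR adjusted p-values were 0.239, 0.127 and 0.252, and those of Chrne, Chrng, Musk and Chrnb1 were 0.438, 0.491, 0.340 and 0.934. The median over the 9 genes was -0.42, against -0.004 over all genes tested. The groups did not overlap for 2 genes, Ache and Colq, where this held for 28.4% of all genes.

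In edgeR, whether members were called at 1 week depended on 1 library, and the sizes of the effects on several. Without replicate 3 of 1wk SBI, 3 of the 9 genes passed both cutoffs in edgeR: Chrna1 at -1.65 (adjusted p = 0.0114), Chrnd at -1.14 (adjusted p = 0.00901) and Ncam1 at -1.38 (adjusted p = 0.00917). In that fit 235 of all genes passed both cutoffs, against 37 with all 12 libraries, so the gain in calls was not limited to the 9. Ache then reached 0.60 (adjusted p = 0.0212), within the fold cutoff.  When any other 1-week library was left out, 0 of the 9 and 2 to 15 of all genes passed, but the effects moved as well. That of Chrna1 ran from -0.86 without replicate 2 of 1wk SBI to -1.69 without replicate 1 of 1wk SBI + Lac (adjusted p = 0.533 and 0.280, edgeR). Without replicate 1 of 1wk SBI, Chrnd was at -0.50 (adjusted p = 0.661), Ncam1 at -0.80 (adjusted p = 0.442) and Musk at -0.15 (adjusted p = 0.826), against -0.42 for Musk with all libraries, all in edgeR. Replicate 3 of 1wk SBI lay near the lactating pools in some marker sums and near its own group in others. Its median Pearson r with the lactating 1-week libraries, over log2 CPM of all genes tested, was 0.978, against 0.967 and 0.973 for replicates 1 and 2, and 0.982 with its own group. Its summed level of mature myofiber genes was 134438 CPM, against 93704 and 84546 CPM in replicates 1 and 2 and 134139 to 160438 CPM in the lactating pools. Its summed level of 8 regenerating myofiber genes was 2802 CPM, above the 2390 CPM of replicate 2 and below the 5637 CPM of replicate 1. Myh3, Myh8 and Actc1 made up most of this sum, at 930, 631 and 1057 CPM. For Mymx and Tnnt2, chosen after their values were seen, replicate 3 was inside the lactating range, at 5.86 and 56.7 CPM. For the other genes of that list it was above the lactating pools. The 41201635 counts of this replicate were the lowest total of the 3 by a small margin. Its summed level of 15 denervation response genes was 566 CPM, against 989.9 and 1119 CPM in replicates 1 and 2 and 625 to 919 CPM in the lactating pools. The largest parts of this sum in replicate 3 were Trim63, Cdkn1a and Fbxo32, at 112, 96.1 and 78.6 CPM. Cdkn1a, chosen after its values were seen, was 352 and 257 CPM in replicates 1 and 2 and 85.5 to 175 CPM in the lactating pools.

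**Figure D3:**
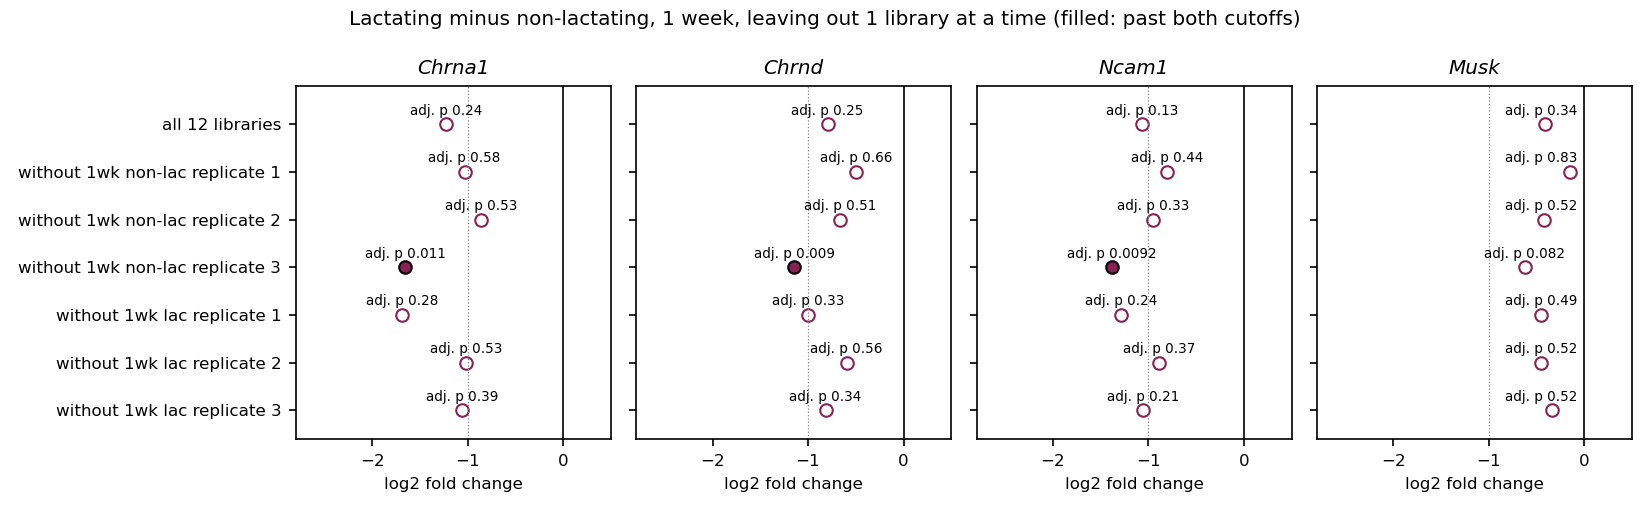
Log2 fold change between lactating and non-lactating pools at 1 week (horizontal axes, edgeR) for Chrna1, Chrnd, Ncam1 and Musk with all 12 libraries and with each 1-week library left out; filled points passed both cutoffs, the dotted line marks -1 and the text gives the adjusted p. Filled points appear in the row without 1wk SBI replicate 3, for Chrna1, Chrnd and Ncam1.

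At 3 weeks the lactation effects on the 9 genes were smaller in size for all but Chrnb1. None passed both cutoffs in edgeR or in either DESeq2 fit, where 0.74% of all genes tested did in edgeR, and 0 of 9 had an unadjusted p under 0.05, against 21.1% of all genes. Ncam1 had the largest difference, -0.53 (95% interval -1.29 to 0.24, adjusted p = 0.415, edgeR), and Colq the smallest adjusted p, 0.305, with a difference of -0.31. Chrna1 did not overlap between the 3-week groups, being lower with lactation, with a difference of -0.38 (95% interval -1.64 to 0.88, adjusted p = 0.741, edgeR), and lack of overlap held for 22.3% of all genes. The test of the difference between the 2 lactation effects called 0 of the 9 genes in edgeR, where 0.00685% of all genes passed. At an unadjusted p under 0.05 it held 2, Ache and Colq, against 4.42% of all genes, and DESeq2 on all 12 libraries called 0. The intervals were wide, for Chrna1 from -0.85 to 2.55 around 0.85, so the data do not show whether lactation acted differently on these genes at the 2 times.

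More of the 9 genes were called between 1 and 3 weeks than between lactation states, in comparisons that mix time with counting. The comparisons of 1wk SBI with 3wk SBI and with 1wk SBI + Lac share the 1wk SBI libraries. In non-lactating rats 4 of 9, Chrna1, Chrnd, Musk and Ncam1, passed both cutoffs and were lower at 3 weeks, where 1.1% of all genes tested were called lower. By the adjusted p alone 8 of 9 passed, 6 lower and 2 higher, where 5.05% of all genes did, and the exception was Chrne. The groups did not overlap for the same 8 genes, against 21.6% of all genes. In lactating rats 3 of 9, Chrnd, Musk and Ncam1, passed both cutoffs and were lower, where 0.685% of all genes were called lower, and 6 of 9 did not overlap, against 28.1% of all genes. The median over the 9 genes was -0.69 without lactation and -0.48 with it, against -0.01 and -0.02 over all genes tested.

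Several of these calls were lost when 1 library was left out, most of them for more than 1 choice of library. Such a fit also has fewer pools. In non-lactating rats the call of Chrna1 was lost in edgeR without replicate 1 or 2 of 1wk SBI (adjusted p = 0.0762 and 0.0550) and without replicate 1 or 2 of 3wk SBI (adjusted p = 0.0588 and 0.0753). That of Ncam1 was lost without replicate 2 of 3wk SBI (adjusted p = 0.0518), and the calls of Chrnd and Musk held without any 1 library. In lactating rats all 3 calls were lost without replicate 3 of 1wk SBI + Lac, or replicate 2 or 3 of 3wk SBI + Lac. Chrnd then had an adjusted p of 0.0522 to 0.0820, Musk of 0.0544 to 0.0949 and Ncam1 of 0.113 to 0.148. Chrnd was lost too without replicate 1 of 3wk SBI + Lac (adjusted p = 0.0871), Musk without replicate 1 or 2 of 1wk SBI + Lac (0.0636 and 0.0538), and Ncam1 without replicate 1 of either lactating group (0.0977 at 1 week and 0.106 at 3 weeks). The log2 fold changes stayed between -2.73 and -2.05 for Chrna1, -2.62 and -2.20 for Chrnd, -1.57 and -1.20 for Musk, and -1.88 and -1.46 for Ncam1 in lactating rats.

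**Figure D4:**
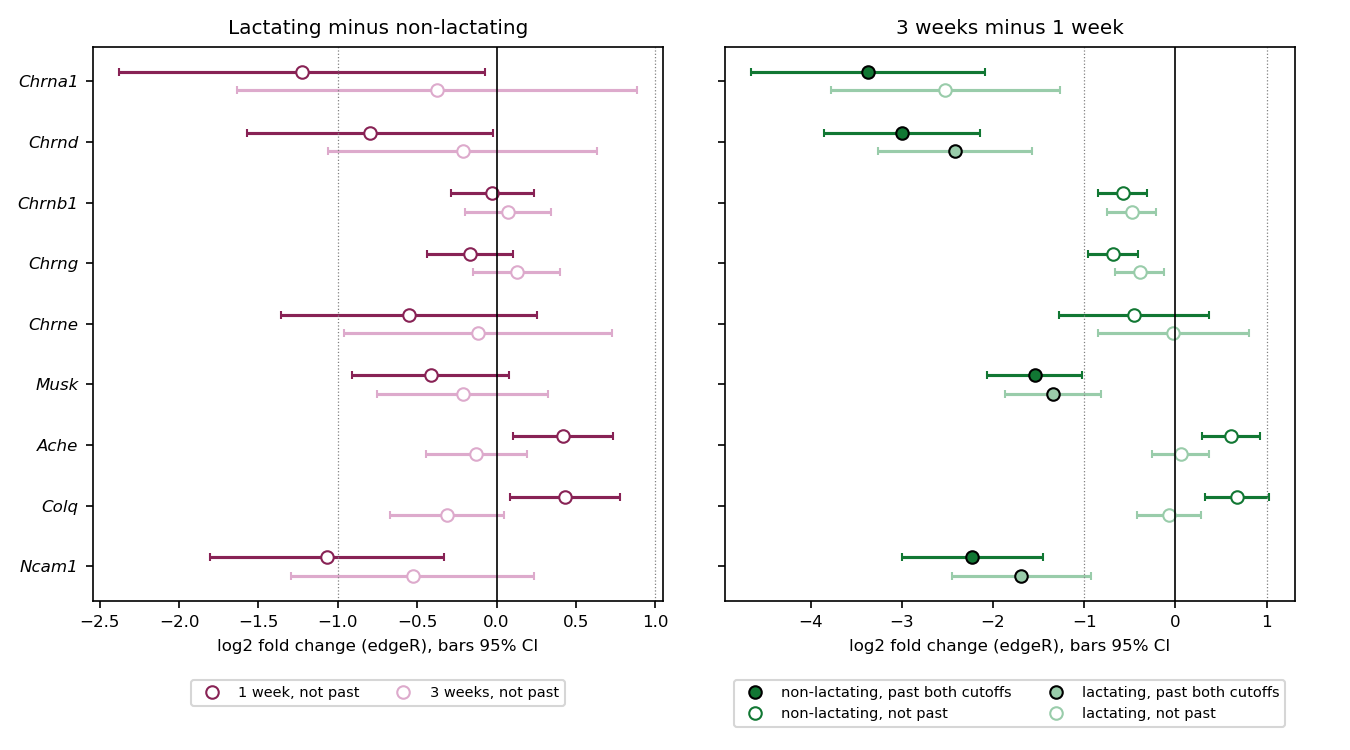
Log2 fold changes (horizontal axes, edgeR) of the 9 genes with 95% confidence intervals, for lactating minus non-lactating pools at 1 and 3 weeks (left) and for 3 weeks minus 1 week in non-lactating and lactating rats (right); filled points passed both cutoffs and dotted lines mark -1 and 1. No lactation effect is filled, and over time Chrna1, Chrnd, Musk and Ncam1 reach from -1.34 to -3.37 while the other 5 genes stay within 1 of 0.

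Other genes of the postsynaptic apparatus were split in direction over time. Of 28 listed, 27 were tested, and their median change over time was 0.01 in both non-lactating and lactating rats, with 13 below 0 and 14 above 0 each time. In non-lactating rats 2 of the 27 passed both cutoffs, where 1.46% of all genes did: Lama5, a laminin chain of the basal lamina, at -1.15 (adjusted p = 0.00873, edgeR), and Col4a3, a synaptic type IV collagen chain, at 1.15 (adjusted p = 0.0165, edgeR). In lactating rats the smallest adjusted p of the list was that of Agrn, the agrin gene, at -0.67 (adjusted p = 0.0105, edgeR), within the fold cutoff. Rapsn, whose product rapsyn anchors the receptors, changed by -0.42 and -0.27 over time without and with lactation, and Dok7, which activates MuSK, by 0.19 and 0.32, all 4 with adjusted p-values above the cutoff (0.187 to 0.476, edgeR). Lrp4, the agrin co-receptor, was 35.9, 28.9 and 19.0 CPM in 1wk SBI and 17.7, 16.9 and 17.6 CPM in 1wk SBI + Lac, which did not overlap (log2 fold change -0.68, adjusted p = 0.0715, edgeR). Some genes of the list were spread over the 1-week libraries as Chrna1 was. Erbb2, a neuregulin receptor gene chosen after its values were seen, was 26.7, 21.0 and 10.1 CPM in 1wk SBI and 12.6, 7.87 and 10.8 CPM in 1wk SBI + Lac, with replicate 3 of 1wk SBI inside the lactating range (log2 fold change -0.89, adjusted p = 0.147, edgeR). Lama5 was 80.6, 86.9 and 49.5 CPM in 1wk SBI and 38.8 to 42.4 CPM in 1wk SBI + Lac, so that replicates 1 and 2 were again the highest and replicate 3 was just above the lactating pools. Agrn was 22.1, 25.8 and 29.0 CPM in 3wk SBI and 20.3, 16.9 and 18.2 CPM in 3wk SBI + Lac, a lactation effect of -0.48 that passed the p cutoff and not the fold cutoff (adjusted p = 0.0419, edgeR).

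Some other genes known to respond to denervation were lower at 3 weeks, and most members of that list were not called. Of 15 listed, 14 were tested, with 10 below 0 and 4 above 0 over time without lactation, and 12 below 0 and 2 above 0 with it. In non-lactating rats 3 of the 14 were called lower, where 1.1% of all genes were: the transcription factor gene Runx1 at -2.08 (adjusted p = 0.00819), Sln, an inhibitor of the calcium pump, at -1.76 (adjusted p = 0.0379), and Gadd45a at -1.54 (adjusted p = 0.00517), all in edgeR. In lactating rats 2 were called lower, against 0.685% of all genes, Runx1 at -1.86 and Sln at -1.89, with adjusted p-values of 0.0232 and 0.0488 (edgeR), and Gadd45a had -0.90 (adjusted p = 0.0573, edgeR). Myog, the gene of the E-box factor myogenin, changed by -0.91 without lactation (adjusted p = 0.0176, edgeR), within the fold cutoff, and by -0.62 with it (adjusted p = 0.111, edgeR). Hdac4, which represses genes that hold back Myog, changed by -0.83 and -0.52 (adjusted p = 0.132 and 0.380, edgeR), and Dach2 had a row but was too low to be tested. Among the 4 genes above 0 without lactation were the ubiquitin ligase genes Fbxo32 and Trim63, which serve protein breakdown in atrophy, at 0.59 and 0.34, and Hdac9 at 0.51 (adjusted p = 0.410, 0.286 and 0.0785, edgeR), all 3 chosen after their values were seen. The list's median was -0.74 without and -0.57 with lactation, against -0.01 and -0.02 over all genes tested. The summed level of the 15 genes overlapped between the time points. Without lactation it was 566 to 1119 CPM at 1 week and 598 to 772 CPM at 3 weeks. With lactation it was 625 to 919 CPM at 1 week and 466 to 659 CPM at 3 weeks.

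At 1 week replicate 3 of 1wk SBI stood apart from its group for some genes of this list and not for others. Gadd45a was 78.2, 94.5 and 47.8 CPM in 1wk SBI and 55.6, 42.9 and 43.3 CPM in 1wk SBI + Lac. Runx1 was 35.9, 32.1 and 13.2 CPM in 1wk SBI and 19.8, 11.2 and 12.5 CPM in 1wk SBI + Lac. For both, replicate 3 of 1wk SBI lay within the range of the lactating pools and the other non-lactating pools above it, as for Chrna1, Chrnd and Ncam1. Fbxo32 differed from them, at 78.3, 162 and 78.6 CPM in 1wk SBI and 202, 126 and 89.0 CPM in 1wk SBI + Lac, so that replicate 2 and not replicate 3 was set apart. Hdac9 was 18.0, 14.2 and 18.8 CPM in 1wk SBI, with replicate 3 the highest, and 22.1, 17.0 and 18.3 CPM in 1wk SBI + Lac. For Gadd45a and Runx1 the lactation effects were -0.64 and -0.90 (adjusted p = 0.137 and 0.145, edgeR), and the smallest adjusted p among the 14 denervation genes tested was 0.115 at 1 week and 0.133 at 3 weeks. The median lactation effect over the list was -0.49 at 1 week and -0.28 at 3 weeks.

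Several of the 9 genes are also transcribed in young, regenerating fibers, so levels of other cells and fibers are given beside them. The summed level of 8 regenerating myofiber genes was 2390 to 5637 CPM in 1wk SBI, 1108 to 1830 CPM in 1wk SBI + Lac, 281 to 899 CPM in 3wk SBI and 249 to 313 CPM in 3wk SBI + Lac, with Mymx at 0 in at least 1 library. Over time 6 of the 8 were called lower without lactation and 4 with it, where 1.1% and 0.685% of all genes were, among them Mymk, a membrane protein of myoblast fusion, at -3.86 and -3.25 (adjusted p = 0.00642 and 0.0268, edgeR). Myh8, the perinatal myosin heavy chain, changed by -3.00 (adjusted p = 0.0287) and -2.60 (adjusted p = 0.0669), and Myh3, the embryonic one, by -1.76 and -2.62 (adjusted p = 0.106 and 0.0517), all in edgeR. All 8 were below 0 for lactation at 1 week, with a median of -1.39 and a smallest adjusted p of 0.0679 in edgeR. At 3 weeks all 8 were again below 0, with a median of -1.30. There 1 of the 8 was called lower (adjusted p = 0.0496, edgeR), where 0.534% of all genes were. Satellite cell markers, 6 genes, summed to 47.6 to 67.1 CPM in 1wk SBI and 31.1 to 38.5 CPM in 1wk SBI + Lac, and to 36.3 to 53.7 CPM in 3wk SBI and 35.1 to 35.6 CPM in 3wk SBI + Lac. Schwann cell markers, 10 genes with none at 0, summed to 99.4 to 138 CPM in 1wk SBI, 98.9 to 154 CPM in 1wk SBI + Lac, 74.7 to 271 CPM in 3wk SBI and 121 to 262 CPM in 3wk SBI + Lac, with a smallest adjusted p of 0.354 in the comparisons over time in edgeR. Mature myofiber genes summed to 84546 to 134438 CPM in 1wk SBI and 134139 to 160438 CPM in 1wk SBI + Lac, and to 128940 to 176088 CPM in 3wk SBI and 190898 to 217138 CPM in 3wk SBI + Lac. The 8 leukocyte genes, with Cd3e and Ncr1 at 0 in at least 1 library, summed to 106 to 122 CPM in 1wk SBI and 52.04 to 76.5 CPM in 1wk SBI + Lac, and to 67.9 to 139 CPM in 3wk SBI and 40.6 to 69.7 CPM in 3wk SBI + Lac. All 7 of them that were tested were below 0 for lactation at both times, and Cd68, a macrophage marker, passed the p cutoff at 1 week at -0.96 (adjusted p = 0.0417, edgeR) and both cutoffs at 3 weeks at -1.08 (adjusted p = 0.0150, edgeR). The 6 fibroblast genes, none at 0, summed to 5855 to 8422 CPM in 1wk SBI and 3501 to 6464 CPM in 1wk SBI + Lac, and to 2921 to 6549 CPM in 3wk SBI and 1785 to 2543 CPM in 3wk SBI + Lac. All 6 were below 0 for lactation at both times, with a smallest adjusted p of 0.274 at 1 week and 0.0951 at 3 weeks in edgeR. The part of these fibers and cells in the values of the 9 genes was not tested.

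**Figure D5:**
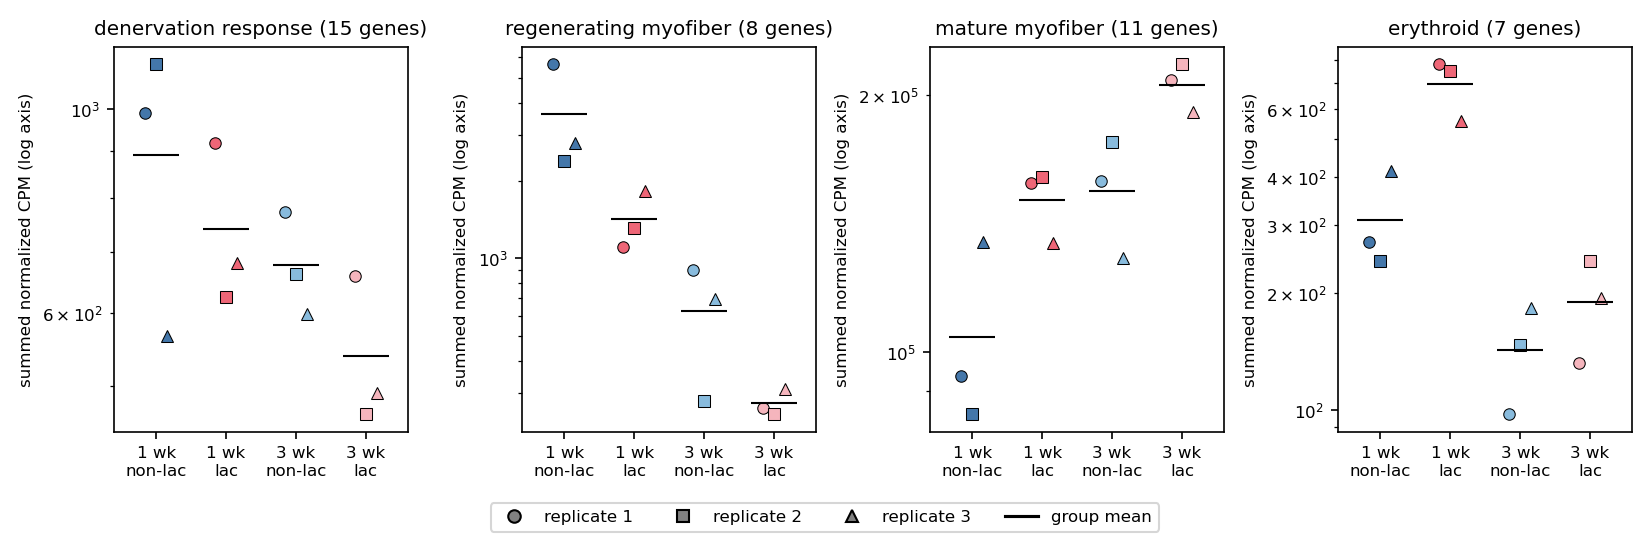
Summed normalized CPM (vertical axes, logarithmic) of denervation response, regenerating myofiber, mature myofiber and erythroid genes in each library, by group; symbols give the replicate number and lines the mean of 3 pools. Replicate 3 of 1wk SBI (triangle) is the lowest 1-week library for the denervation genes at 566 CPM. At 2802 CPM it is above all lactating pools for the sum of the regenerating myofiber genes, most of which comes from Myh3, Myh8 and Actc1.

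The genes whose log2 CPM followed the fetal subunit gene Chrng most closely over the 12 libraries were Aak1, Chp1, Klc1, Copz2 and Chrnd, with a Pearson r of 0.96, 0.95, 0.95, 0.94 and 0.93. After the mean of each time point was subtracted these were 0.94, 0.85, 0.76, 0.74 and 0.69. For the adult subunit gene Chrne they were Htra2, Arhgef19, Ift80, Leng9 and Zcchc7, with r of 0.94, 0.92, 0.92, 0.90 and 0.90, and 0.93, 0.92, 0.92, 0.91 and 0.90 after subtraction. The 2 lists shared no gene, and the r between Chrng and Chrne was 0.29, or 0.09 with the time points centred. Ache had an r of -0.78 with Chrna1 and -0.71 with the time points centred. These are descriptions over libraries that share depth and tissue makeup. For Chrng, whether its row also holds reads of Eif4e2 was not tested.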

How the data were processed

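Polyadenylated RNA of 12 pools of 2 rats was sequenced with a stranded kit. The authors deposited 1 table of counts per gene: whole counts at 1 week and expected counts, as deposited with decimals in 26.6% to 44.0% of values, at 3 weeks. Salmon is named in the submitters' processing notes; genome build, annotation and use of strand are not given in the sources used here, so overlapping genes may share reads. Expected counts were rounded. All 12 libraries entered 1 edgeR 4.0.16 fit (R 4.3.3; TMM, filterByExpr, robust quasi-likelihood, 4 groups) with Benjamini-Hochberg adjustment over 14599 genes. A call needed an adjusted p under 0.05 and a log2 fold change beyond 1 or -1. The design had been written for whole counts throughout. DESeq2 1.42.0, the tool of the study, was an alternative, as were other normalizations, filters, thinning and leaving out each library. Likeness used log2 CPM with a prior count of 2. Libraries of a group were not copies (chi-square per degree of freedom 20.8 to 95.3). The test was tested on simulated data. P-values measure the spread between pools. The members and lists were chosen with earlier results of these data known. Named genes were all 9 members, some of the listed genes past both cutoffs (at most 4 per list and comparison), fixed pathway genes, and the 5 genes most like Chrng and Chrne. A few others were chosen after their values were seen. Other listed genes past both cutoffs are not named. Of the listed genes, 3 are not reported here and were left out of their lists.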

Additional observations from a re-analysis of the deposited data

How the results depend on the processing

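Over time in non-lactating rats the count of members called stayed at 4 under every normalization, filter, tool and thinning run, rose to 8 with no fold cutoff, and ran from 2 to 4 with 1 library left out. In lactating rats it was 2 to 4 under those settings, with Chrna1 called by both DESeq2 fits, by edgeR on the libraries compared, with 10 counts in every library and at an adjusted p under 0.1, and Ncam1 lost with no filter or at equal depth, and 0 to 2 with 1 library left out. At 1 week the count of 0 members became 1 with DESeq2 on all 12 libraries (Ncam1, adjusted p = 0.0108) and ran from 0 to 3 with 1 library left out, and the cause was not tested. At 3 weeks and for the difference of effects it was 0 in every setting run. The difference in the ratio of Chrng to Chrne ran with 1 library left out from -0.145 to 0.818 for lactation at 3 weeks and from -0.741 to 0.223 over time in lactating rats. It passed no test, and the exact test on so few pools could not have passed the cutoff of 0.05. Small effects changed sign with 1 library left out, ranging from -0.12 to 0.052 (also 0.0011 and 0.049) for Chrnb1 at 1 week and -0.0082 to 0.18 at 3 weeks, from -0.46 to 0.17 (also 0.10) for Chrne and -0.45 to 0.0053 for Musk at 3 weeks, from -0.058 (also -0.032) to 0.42 for the Musk difference of effects, and over time in lactating rats from -0.36 to 0.27 (also 0.14) for Chrne and -0.17 to 0.023 for Colq.

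Same-numbered libraries did not deviate in the same direction: their correlations were all below 0, from -0.233 to -0.00458. The numbers were not used to pair libraries in the main fit. With a replicate block, members past both cutoffs stayed at 0, 0, 0, 4 and 3, while genes called went from 37 to 8 and 108 to 64 for lactation at 1 and 3 weeks. Of all genes, 37 at 1 week became 188 and 332 with DESeq2 on 12 libraries or those compared, 110 with edgeR on those compared, 22 with 10 counts in every library, 83 with no fold cutoff and 151 at an adjusted p of 0.1, and 2 to 235 with 1 library left out. The 108 at 3 weeks became 242 and 175 with DESeq2, 371 and 232 with those cutoffs, and 22 to 157. The 1 gene for the difference became 11 with DESeq2, 2 with no filter, thinning or the block, 3 at 0.1, and 1 to 5. Over time 213 became 103 with edgeR on the libraries compared, 737 with no fold cutoff, and 61 to 554; 113 became 248 and 253 with DESeq2, 191 with edgeR on those compared, 293 and 216 with the other cutoffs, and 27 to 77.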
